A study of Mus musculus with 4 samples.

Results

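The genes described here encode the proteasome and the enzymes that attach ubiquitin to proteins or remove it. They were taken by symbol, from features of the array with 1 gene symbol that began with Psma to Psmg, Uba, Ube2 to Ube4 or Usp and a number, and that had a value other than exact 0 on at least 1 array. This gave 114 features of 99 genes, out of 12221 features with 1 symbol and a value and 16281 features in all. They fell into 49 Psm features (42 genes), 36 Uba and Ube features (30 genes) and 29 Usp features (27 genes). A further 8 features matched by symbol but held no value on any array, among them the only features of Psmb5, Psme1, Ube2c and Psmc3ip. The symbols also took a few genes that are not what the name says, namely Psmb5-ps, a pseudogene of a catalytic subunit, Psme2b, a copy of the activator gene Psme2, and Usp46os2, an RNA on the opposite strand at Usp46.

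The series comprised 4 two-colour arrays of dentate gyrus RNA from young male C57BL/6J mice, 1 array each for 1, 2, 4 and 6 h. Per the labels, mice given saline (5 µL per g body weight) supplied the Cyanine-3 channel of each array and mice given MK-801 (300 µg per g, a blocker of NMDA receptors, as printed there) the Cyanine-5 channel. The hours run from a last shock of the MK-801 mice, yet both RNAs are called those of control mice, so whether any mouse of these arrays was shocked cannot be told, nor how many animals were pooled. The values are deposited log ratios of unstated base, read as log2, and of unstated direction, so a positive sign may mean more RNA in MK-801 or in saline mice.

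Every ratio below was centred on the median of its array. The genes were summarised over 87 genes with a value on all 4 arrays (38 Psm, 28 Uba and Ube, 21 Usp), beside 6661 named genes measured as widely. Because 1 array stood for each time, no value at a single time has a replicate error. A ratio also cannot tell fewer cells of a type from less RNA per cell. There was no dye swap, so dye and treatment went together on every array. A constant dye bias of a gene cannot be told apart from treatment, in a single ratio or in a mean over arrays. The arrays gave 10185 to 12227 features with a value. Internal measures of error came from pairs of features. Pairs of the same accession, not limited to member genes, numbered 468, 381, 402 and 348 at 1, 2, 4 and 6 h. Their median gap was 0.24, 0.18, 0.12 and 0.06. The upper decile of their gaps began at 0.77, 0.57, 2.87 and 0.49, so the tail was widest at 4 h. Pairs of the same member gene numbered 14, 14, 13 and 12 at 1, 2, 4 and 6 h. The median gap between a member pair was 0.25, 0.20, 0.19 and 0.22 at these times, which is as large as most ratios reported here. Ratios also hold no level, so the identity of the tissue could not be checked against its markers. The 4 granule cell markers measured on all 4 arrays had medians between -0.13 and 0.02, but single markers spread more widely. Prox1 was the lowest of them at 1 h (-0.57) and the highest at 4 h (0.60). Calb2 was the highest at 1 h (0.10) and the lowest at 4 h (-0.27).

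The 26S proteasome degrades proteins tagged with ubiquitin. Its 20S core is a barrel of alpha rings, which form the gate, around beta rings, which carry the protease sites, and the 19S cap recognises, unfolds and threads the substrate. Ubiquitin is activated by an E1 enzyme, handed to an E2 and placed on the substrate with the help of an E3 ligase, and deubiquitinases such as those of the Usp family take it off again. In neurons this system sets the lifetime of synaptic proteins and takes part in plasticity.

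Over the 4 arrays the median of the gene means was 0.10 for Psm genes, 0.05 for Uba and Ube genes and -0.02 for Usp genes. The order of the first pair rested on the 1 h array: without it the medians were 0.07 for Psm and 0.08 for Uba and Ube genes. Listed in the order 1, 2, 4 and 6 h, as are all values in fours below, their medians were 0.07, 0.07, 0.06 and 0.10, and 24, 21, 24 and 32 of 38 genes were above 0. The background share of genes above 0 was 45.3%, 48.8%, 49.8% and 50.5% at 1, 2, 4 and 6 h. Uba and Ube genes had medians of -0.03, 0.01, 0.09 and 0.05 with 13, 15, 19 and 20 of 28 genes above 0. Usp genes had medians of -0.08, -0.07, 0.05 and 0.02 with 9, 10, 13 and 12 of 21 genes above 0. Only the Psm median was thus positive on each of the 4 arrays. All named genes together had medians of -0.03, -0.01, 0.00 and 0.00.

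The Psm median exceeded the Usp median by 0.14, 0.14, 0.01 and 0.08, a mean of 0.09 ± 0.06 (SD, n = 4 arrays). The difference between Psm and Uba/Ube medians was 0.10, 0.05, -0.03 and 0.04, so Uba and Ube genes were higher at 4 h. The subgroups were not tested against each other, since genes of 1 array share that array. Of the 38 Psm genes 10 were above 0 on all 4 arrays and 1 was below. Of 28 Uba and Ube genes 3 were above and 2 below, and of 21 Usp genes 2 were above and 3 below. Over all named genes 11.1% were above 0 on every array and 13.8% below.

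**Figure D1:**
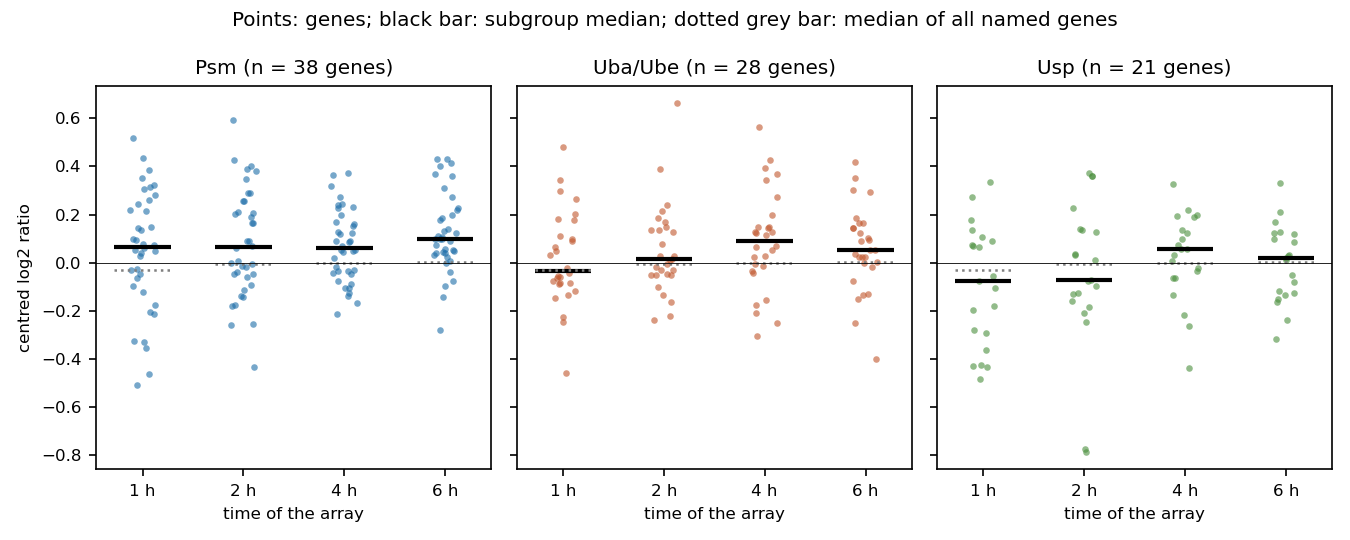
Centred log2 ratio (vertical axis) of every member gene with a value on all 4 arrays, by time of the array, for Psm, Uba/Ube and Usp genes. Points are genes, black bars subgroup medians and dotted bars medians of all 6661 named genes; the Psm bar is above 0 at each time, from 0.06 to 0.10, while the Usp bar is at -0.08 and -0.07 at 1 and 2 h.

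Most ratios were small. At or past 0.5 in either direction lay 2, 4, 1 and 0 of 87 member genes on the successive arrays, against 8.95%, 3.51%, 5.96% and 4.52% of all named genes. None of these 87 genes reached 1 in either direction. Of all 6661 named genes, 18, 0, 5 and 6 were at or above 1 and 26, 44, 43 and 36 at or below -1. That is so few that finding none among the members is no result about them. The genes past 0.5 were Psma4 and Psmd3 at 1 h, Psmc3, Ube2d3, Usp48 and Usp9x at 2 h, and Ube2o at 4 h.

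Within the proteasome the beta ring genes had the highest median of the roles with 3 or more genes at 2, 4 and 6 h, though not at 1 h, where activators (0.22) and assembly factors (0.32) lay above them. The 6 measured genes had medians of 0.18, 0.29, 0.22 and 0.34. Psmb6, the subunit that carries the caspase-like site, had ratios of 0.24, 0.29, 0.20 and 0.37. Psmb4, a structural beta subunit, had 0.26, 0.43, 0.15 and 0.31. Psmb3, also structural, had 0.22, 0.29, 0.37 and 0.19. These 3 genes were positive on every array with little spread.

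Psmb7, which carries the trypsin-like site, read -0.20, 0.40, 0.27 and 0.43, and Psmb2, a structural subunit, read -0.33, 0.26, 0.23 and 0.42. Both were negative at 1 h and positive later. Psmb1 was lower than the other beta genes at the later times, at 0.15, 0.07, -0.05 and 0.02 over its 2 features. Psmb5, the chymotrypsin-like subunit, had no value, and the feature of its pseudogene Psmb5-ps read 0.06, 0.17, -0.02 and 0.10.

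The sequences before the starts of Psmb6, Psmb3, Psmb4 and Ube3a are shown because these were the 4 member genes of smallest p in the test of the mean over the arrays described further on, 3 positive and 1 negative. They run 5′ to 3′ up to the annotated gene, from RefSeq, build GRCm38.p6. Capitals mark CCAAT, the box bound by NF-Y, and GGGCGG, a GC box, on either strand; the stretch of Psmb4 held neither.
Psmb6, chr11:70525107-70525323, plus strand: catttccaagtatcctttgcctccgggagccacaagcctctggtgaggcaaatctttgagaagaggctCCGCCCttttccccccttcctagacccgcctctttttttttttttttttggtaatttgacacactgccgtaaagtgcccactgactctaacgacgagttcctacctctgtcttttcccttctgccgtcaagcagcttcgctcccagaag
Psmb3, chr11:97703184-97703433, plus strand: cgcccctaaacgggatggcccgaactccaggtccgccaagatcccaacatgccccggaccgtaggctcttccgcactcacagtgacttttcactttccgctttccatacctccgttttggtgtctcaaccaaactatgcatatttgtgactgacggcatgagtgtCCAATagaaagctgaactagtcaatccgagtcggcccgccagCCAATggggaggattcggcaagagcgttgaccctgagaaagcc
Psmb4, chr3:94886959-94887208, minus strand: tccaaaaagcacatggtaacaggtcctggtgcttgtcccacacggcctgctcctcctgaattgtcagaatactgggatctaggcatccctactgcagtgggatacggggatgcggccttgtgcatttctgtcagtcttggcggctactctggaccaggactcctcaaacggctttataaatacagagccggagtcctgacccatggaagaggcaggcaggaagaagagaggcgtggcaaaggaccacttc
Ube3a, chr7:59228500-59228749, plus strand: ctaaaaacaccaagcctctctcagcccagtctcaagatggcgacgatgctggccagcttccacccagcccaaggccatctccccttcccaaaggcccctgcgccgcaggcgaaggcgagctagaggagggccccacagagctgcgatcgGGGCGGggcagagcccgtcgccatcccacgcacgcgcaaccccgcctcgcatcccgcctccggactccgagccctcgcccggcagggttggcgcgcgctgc

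A promoter entry of 300 bases, 250 before and 50 after the start, was found for 78 of the 99 member genes. On both strands 7 motifs were searched, and each match is a description of letters only. The ETS-type motif CCGGAAG was present for 13 of 33 Psm genes (39.4%), 8 of 24 Uba and Ube genes (33.3%) and 5 of 21 Usp genes (23.8%), and for 12.9% of 17491 protein-coding genes. GGGCGG was present for 54.5%, 79.2% and 47.6% of the 3 subgroups and for 49.2% of all genes. CCAAT was present for 39.4%, 29.2% and 28.6%, against 42.3%. The antioxidant response core TGACNNNGC was present for 15.2% of Psm, 16.7% of Uba and Ube and 33.3% of Usp genes, against 14.8%, and CACGTG for 12.1%, 16.7% and 9.5%, against 8.9%. The CRE palindrome TGACGTCA was present for 0.0%, 8.3% and 4.8%, against 2.5%, and GGAAGTGAC, which holds an ETS core, for 3.0%, 4.2% and 0.0%, against 2.0%. Of the 4 genes shown above, Psmb6 held TGACNNNGC, 9 bases before the start used for its entry and inside its annotated gene. No other match of TGACNNNGC was found in the 250 bases before the starts of these 4 genes, and none of the ETS-type motifs, of CACGTG or of the CRE palindrome.

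Alpha ring genes lay near 0 after 1 h. The 6 measured genes had medians of 0.06, -0.04, -0.03 and 0.07. All 6 were below 0 at 2 h, where all 6 beta genes were above 0, against 48.8% of all named genes above 0. The 2 sets did not overlap, but their nearest genes were Psma1 at -0.01 and Psmb1 at 0.07. These lay closer together than the median gap of 0.20 between features of a member gene at 2 h. Of the 2 Psmb1 features, 1 read -0.01 at that time. Psma4 was the exception at 1 h, at 0.52, with -0.06, 0.05 and 0.11 later. Psma3 had -0.21, -0.18, 0.05 and 0.10. Psma1, Psma5, Psma6 and Psma7 stayed between -0.13 and 0.14 on every array. Psma2 had values at 1 and 6 h alone, 0.51 and -0.40, and Psma8, a testis subunit, at 4 h alone, 0.04. Each of these alpha ring genes rested on 1 feature.

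**Figure D2:**
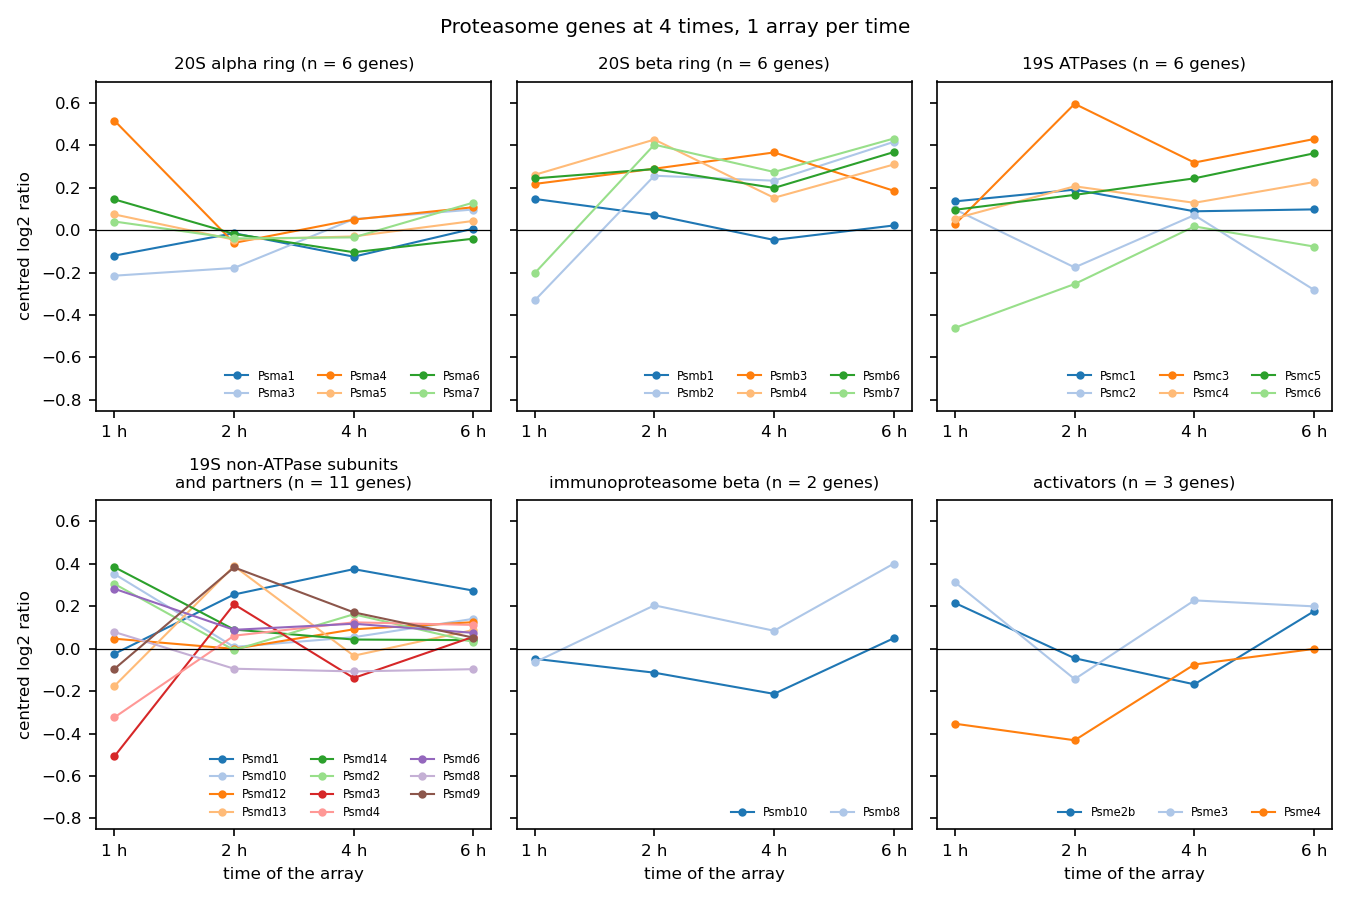
Centred log2 ratio (vertical axis) of Psm genes with a value on all 4 arrays, by time of the array (equally spaced, not to scale in hours), in 6 panels by role; each line joins the 4 arrays for 1 gene. At 2 h every alpha ring gene is below 0 and every beta ring gene above it, the nearest being Psma1 at -0.01 and Psmb1 at 0.07. Psmc3 is the highest ATPase there at 0.59.

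The beta genes of the immunoproteasome, which interferon induces in place of the constitutive catalytic subunits, did not share 1 pattern. Psmb8 read -0.06, 0.20, 0.08 and 0.40. Psmb10 averaged -0.05, -0.11, -0.21 and 0.05, and its 2 features were of opposite sign at 1 h (0.09 and -0.19) and 6 h (0.14 and -0.04). Psmb9 had a value at 1 h alone, 1.08, the largest ratio of any member feature, and no value at the other times.

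The ATPases of the 19S base unfold the substrate. Psmc3 had 0.03 at 1 h and then 0.59, 0.32 and 0.43, the highest Psm gene at 2 h. Psmc5 averaged 0.10, 0.17, 0.24 and 0.36, and its 2 features were of opposite sign at 1 h (-0.16 and 0.36) but close at 4 h (0.24 and 0.25) and 6 h (0.39 and 0.34). Psmc4 read 0.05, 0.21, 0.13 and 0.23 and Psmc1 averaged 0.14, 0.19, 0.09 and 0.10, with 1 of its 2 features at -0.02 at 1 h. These 4 genes were positive on every array.

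Psmc6 ran the other way, with -0.46, -0.25, 0.02 and -0.08. Psmc2 averaged 0.10, -0.18, 0.07 and -0.28, but its features disagreed: 1 read 0.12, -0.65, -0.04 and -0.82 and the other 0.08, 0.30, 0.18 and 0.25. The negative average of Psmc2 therefore came from 1 of its 2 features.

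Of the 11 other 19S genes and their partners, 10 were above 0 at 6 h and 6 at 1 h. Psmd1, a scaffold subunit of the base, read -0.02, 0.26, 0.37 and 0.27. Psmd14, the deubiquitinase of the lid, read 0.38, 0.09, 0.04 and 0.04, and Psmd6 read 0.28, 0.09, 0.12 and 0.07. The assembly factor Psmd10 read 0.35, 0.01, 0.05 and 0.14, with a second feature at 1 h alone (0.58). Psmd6, Psmd10 and Psmd14 were thus positive throughout and highest at 1 h.

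Psmd3 and the ubiquitin receptor Psmd4 were low at 1 h, at -0.51 and -0.32, and lay between -0.14 and 0.21 later. Psmd13 and the assembly factor Psmd9 peaked at 2 h, at 0.39 and 0.38, after -0.18 and -0.10 at 1 h. Psmd2 averaged 0.31, -0.01, 0.16 and 0.03 from 2 features, 1 at 0.45, -0.13, 0.06 and -0.21 and the other at 0.16, 0.12, 0.26 and 0.28. Psmd8 (0.08, -0.09, -0.11 and -0.10) and Psmd12 (0.05, 0.00, 0.09 and 0.12) stayed near 0. Psmd7 had a value at 1 h alone, -0.42.

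Activators open the core in place of the 19S cap. Psme4, the nuclear activator PA200, was the 1 Psm gene below 0 on all 4 arrays, at -0.35, -0.43, -0.07 and 0.00, the last below 0 by less than rounding shows. Psme3, the activator PA28 gamma, read 0.31, -0.14, 0.23 and 0.20, and Psme2b 0.22, -0.05, -0.17 and 0.18. Of the assembly chaperones, Psmg2 read -0.03, 0.35, 0.24 and 0.22. Its partner in the same dimer, Psmg1, read 0.32, -0.14, -0.04 and 0.04, and Psmg3 0.44, -0.26, -0.09 and -0.14. At 2 h Psmg2 and its partner were thus of opposite sign.

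Among activating enzymes, Uba7, which charges the ubiquitin-like ISG15, read 0.09, 0.08, 0.15 and 0.05. Uba3, the catalytic subunit of the NEDD8 E1, read -0.06, 0.01, 0.13 and 0.05, and another Uba3 feature gave -0.39 at 1 h alone. Uba1y had a value at 1 h alone, -0.13.

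Conjugating enzymes lay on both sides of 0. The median of 22 E2 genes was 0.04, -0.01, 0.06 and 0.06. Their SD over genes (0.21, 0.20, 0.22 and 0.17) was below that of all named genes (0.30, 0.27, 0.30 and 0.27). This was not particular to E2 genes, since the SD of all 87 member genes (0.24, 0.24, 0.18 and 0.17) was below it too. Ube2d3, an E2 that works with many ligases, had the highest mean of the 87 genes, with 0.05 at 1 h and 0.66, 0.39 and 0.35 later. Ube2d2a, of the same E2 family, read -0.06, 0.13, 0.05 and 0.02. Ube2n, which builds chains linked through lysine 63, read 0.26, -0.13, 0.43 and 0.29. Its non-catalytic partner Ube2v1 was negative on every array, at -0.08, -0.16, -0.31 and -0.15.

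Ube2b, an E2 of DNA damage tolerance, read -0.04, 0.03, 0.37 and 0.30, while its close relative Ube2a stayed between -0.08 and 0.02. Ube2k was positive throughout (0.18, 0.21, 0.03 and 0.14). Ube2g2, an E2 of degradation at the endoplasmic reticulum, averaged -0.13, 0.24, 0.34 and 0.42, but the high values at 4 and 6 h came from 1 feature (-0.11, 0.15, 0.56 and 0.78) and the other read -0.15, 0.33, 0.13 and 0.06. Ube2g1 read -0.46, 0.02, 0.15 and 0.12. Ube2h, with -0.23, 0.03, 0.06 and -0.02, was also lowest at 1 h.

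A few E2 genes were positive at 1 h and negative later. Ube2t, of the Fanconi pathway, read 0.34, -0.03, -0.21 and -0.25. Ube2j2, an E2 of the endoplasmic reticulum, averaged 0.30, -0.05, -0.17 and -0.13; 2 of its 3 features were near -0.2 at each later time and the third read 0.21, -0.09 and 0.04 there. Ube2v2 averaged 0.48, -0.01, -0.16 and -0.14, of which 1 feature gave 1.01, -0.10, -0.32 and -0.19 and the other -0.05, 0.09, 0.01 and -0.08.

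Ube2o had 2 features annotated to the same accession, so they bear on error directly. Over 2, 4 and 6 h, where both had a value, 1 feature read -0.24, 0.56 and 0.19 and the other 0.52, 0.13 and 0.47. The first alone had a value at 1 h (-0.08) and alone entered the fits below. They differed by more than 0.25 on each of these arrays and were of opposite sign at 2 h.

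The ligase gene Ube3a, the gene of Angelman syndrome, was negative on every array with little spread, at -0.25, -0.22, -0.25 and -0.40. It rested on 1 feature. The other E3 genes Ube3b (-0.12, 0.15, 0.27 and 0.09) and Ube4b (-0.07, 0.18, 0.20 and 0.14) were negative at 1 h and positive later.

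Deubiquitinases of the Usp family held both signs. Usp9x, encoded on the X chromosome, read 0.18 at 1 h and -0.79, -0.44 and -0.24 later, the lowest mean of the 87 genes. On these arrays, labelled male in both channels, 1 feature of Xist, the X inactivation RNA, read -1.20, -3.55, -4.18 and -3.55 and the other 0.26 and 0.41 at 1 and 2 h with no value later. Features of the Y-linked genes Eif2s3y, Kdm5d and Uty lay between -0.75 and 0.35. Other X-linked members on all 4 arrays were Usp11 (0.09, 0.36, 0.20 and 0.10) and Psmd10 (0.35, 0.01, 0.05 and 0.14). So were Ube2a (-0.08, -0.02, 0.02 and 0.00) and Usp26 (0.07, 0.14, 0.12 and -0.08). The X-linked Usp27x read 0.07, -0.06 and 0.15 at 2, 4 and 6 h. The part of sex-linked expression in the Usp9x ratio was not tested. Usp25 (-0.43, -0.10, -0.26 and -0.32), Usp33 (-0.29, -0.13, -0.06 and -0.17) and Usp24 (-0.05, -0.08, -0.03 and -0.05) were negative throughout. Usp48 was at -0.77 at 2 h and between -0.12 and 0.11 on the other arrays. Usp8, an enzyme of endosomal sorting, read -0.36, 0.14, -0.13 and -0.13.

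On the positive side, Usp11 (0.09, 0.36, 0.20 and 0.10) and Usp21 (0.07, 0.13, 0.14 and 0.12) were above 0 on every array. Usp15 read -0.10 at 1 h and 0.37, 0.33 and 0.33 later. Usp12 read 0.27, 0.36, -0.22 and 0.12, and Usp16 0.33, -0.19, 0.10 and 0.03. Usp14, which trims ubiquitin at the 19S cap, read -0.20, 0.01, 0.19 and 0.17.

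Usp2, whose transcript is under clock control, had -0.28, -0.16, 0.22 and 0.21. Usp54 (-0.44, -0.21, 0.05 and 0.01), Usp20 (-0.48, 0.23, 0.07 and 0.13) and Usp39 (-0.43, 0.03, 0.19 and 0.03) were also lowest at 1 h. Usp18, which removes ISG15, had values at 1 and 2 h alone, -0.83 and 0.40. The features of Usp10, Usp17la and Usp17lc had 1 value each.

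**Figure D3:**
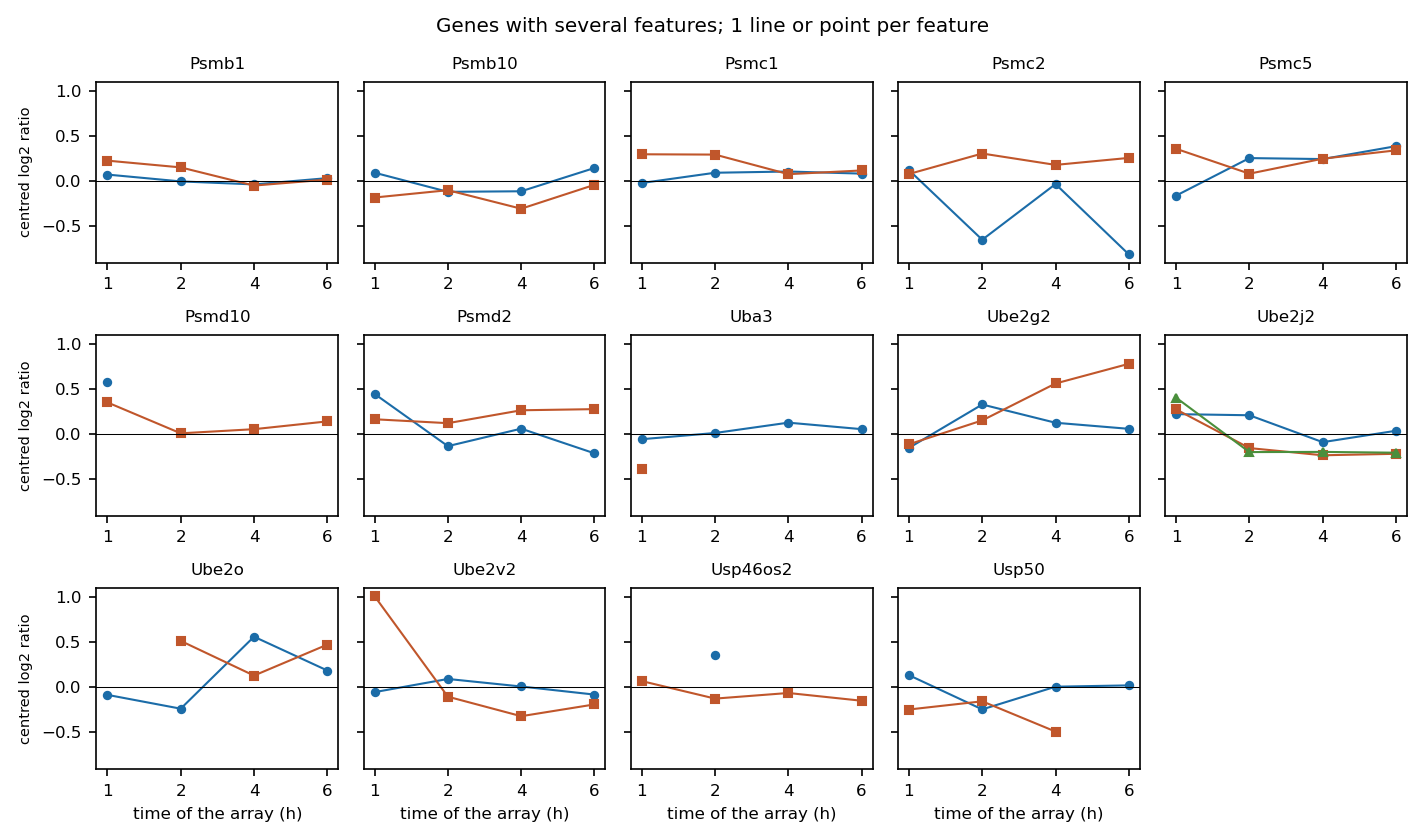
Centred log2 ratio (vertical axis) by time of the array (h, equally spaced) for the 14 member genes with several features, 1 line or isolated point per feature. Psmc2 features part at 2 and 6 h (-0.65 and -0.82 against 0.30 and 0.25) and Ube2v2 features at 1 h (1.01 against -0.05), while both Psmc5 features are near 0.24 at 4 h.

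The first test asked whether the mean of the 4 arrays differed from 0, taking the scatter of the 4 times as error (limma, fitted on all 6661 genes, Benjamini-Hochberg adjusted p under 0.05). It called 0 of 87 member genes, where the share over all genes was 0.0%. At an unadjusted p under 0.05 were 11 member genes, 8 positive and 3 negative, against 14.7% of all genes (6.85% positive, 7.81% negative). Of the 11, 6 were Psm genes, all positive: Psmb6 (mean 0.27 ± 0.07, SD, n = 4 arrays, adjusted p = 0.237 in limma), Psmb3 (0.26 ± 0.08), Psmb4 (0.29 ± 0.11), Psmc3 (0.34 ± 0.24), Psmc5 (0.22 ± 0.11) and Psmd1 (0.22 ± 0.17). The others were Ube2d3 (0.36 ± 0.25) and Usp11 (0.19 ± 0.13), both positive, and Ube3a (-0.28 ± 0.08), Usp25 (-0.28 ± 0.14) and Ube2v1 (-0.18 ± 0.09), all negative. Their adjusted p lay between 0.237 and 0.331 in limma, so none passed.

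The 1 h array decided this count. Over the 87 member genes its ratios correlated with those at 2, 4 and 6 h at r = -0.03, -0.05 and 0.02, where the later arrays correlated with each other at 0.43, 0.57 and 0.74 (Pearson, across genes that share arrays, a description). Over all 6661 genes the first 3 values were -0.06, -0.08 and -0.08. The later arrays correlated with each other at 0.63, 0.66 and 0.79 over all genes, each above the member value. Without the 1 h array limma called 14 of 87 member genes, 12 positive and 2 negative, against 12.9% of all genes (6.95% positive, 5.9% negative). By subgroup these were 9 of 38 Psm genes, all positive, 3 of 28 Uba and Ube genes and 2 of 21 Usp genes. Whether the subgroups differ in this share was not tested.

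The 9 Psm genes of that fit were Psmb2, Psmb3, Psmb4, Psmb6, Psmb7, Psmc3, Psmc5, Psmd1 and Psmg2. Thus 5 of the 6 beta ring genes were called and none of the alpha ring genes. Psmc3 had the largest later mean of these, 0.45 (adjusted p = 0.0247 in limma), followed by Psmb7 at 0.37 (0.0262), Psmb2 at 0.30 (0.0377), Psmd1 at 0.30 (0.0333) and Psmb4 at 0.30 (0.0476). Psmc5 was the closest to the threshold, at 0.26 (0.0497). Of the remaining 5 genes called, Ube2d3 (0.47), Usp15 (0.34) and Ube2g2 (0.33) were positive, and Usp9x (-0.49) and Ube3a (-0.29) negative, with adjusted p between 0.0243 and 0.0414. Leaving out the 2, 4 or 6 h array called 0 member genes. The share over all genes was not counted for those fits, so this 0 is no result about the members.

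**Figure D4:**
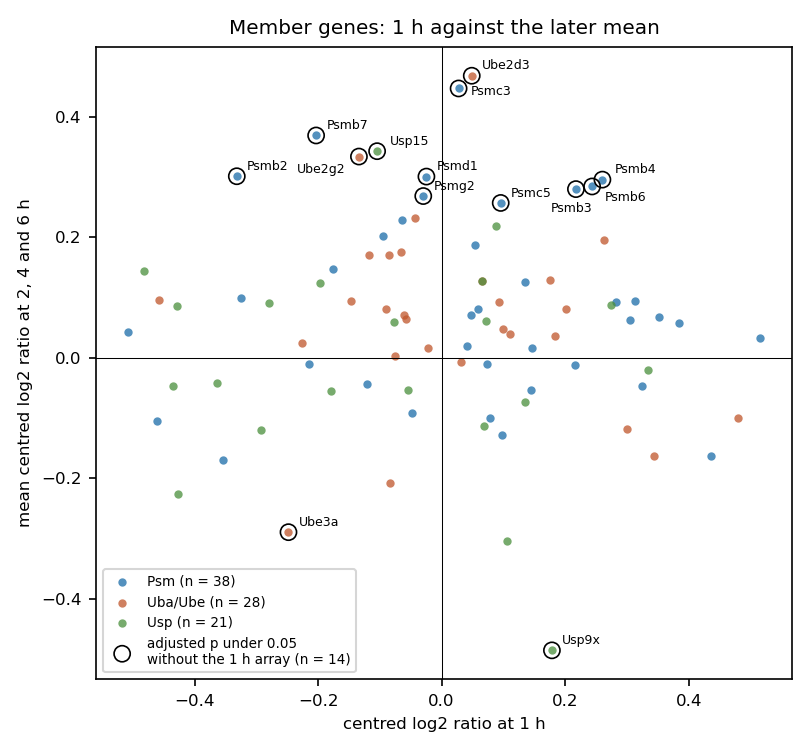
Each point is 1 of the 87 member genes: centred log2 ratio at 1 h (horizontal axis) against the mean of the 2, 4 and 6 h ratios (vertical axis), coloured by subgroup; open circles mark the 14 genes past an adjusted p of 0.05 without the 1 h array. Psmb2 and Psmb7 lie left of 0 at 1 h and Psmb3, Psmb4 and Psmb6 right of it, with all 5 between 0.28 and 0.37 later.

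The second test was of the slope on log2 hours. limma called 0 of 87 member genes (0.0% of all genes), and 11 had an unadjusted p under 0.05, 8 positive and 3 negative, against 15.9% of all genes (9.22% positive, 6.7% negative). The positive ones were Psmb2 (slope 0.26 ± 0.08 per doubling of hours, SE), Ube2g1 (0.22 ± 0.07), Usp2 (0.22 ± 0.06), Ube2g2, Usp54, Psmc6, Ube2b and Usp14. The negative ones were Ube2v2 (-0.24 ± 0.07), Ube2t (-0.23 ± 0.06) and Ube2j2 (-0.17 ± 0.07). Their adjusted p ran from 0.265 to 0.314 in limma. Psm genes made up 2 of the 11 and Uba and Ube genes 6. Without the 1 h array 4 member genes had an unadjusted p under 0.05 for the slope, against 6.41% of all genes.

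The third test set the 4 and 6 h arrays against the 1 and 2 h arrays. limma called 0 member genes (0.0% of all genes), and 4 had an unadjusted p under 0.05, all higher late, against 5.75% of all genes (3.53% higher, 2.22% lower): Ube2o (0.54 ± 0.17, SE), Usp2 (0.43 ± 0.13), Psme4 (0.35 ± 0.12) and Ube2b (0.34 ± 0.12), each at an adjusted p of 0.760. Without the 2 h array 15 member genes were called, 10 higher and 5 lower late, against 11.3% of all genes higher and 8.62% lower. There 1 h alone stood for early times, a lone array taken to have the same variance as the late ones. Member genes called higher late there were Psmb2, Psmb7, Psmd4, Ube2g1, Ube2g2, Usp2, Usp15, Usp20, Usp39 and Usp54. Those called lower late were Psma4, Psmg3, Ube2j2, Ube2t and Ube2v2.

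Other genes of the pathway came from a separate list of ubiquitin and its relatives, shuttle factors, cullins, other ligases and regulators, of which 36 were measured on all 4 arrays. Their medians were 0.00, 0.05, 0.06 and 0.03 at 1, 2, 4 and 6 h, and 5 were above and 4 below 0 on every array. limma called 0 of 36 for the mean, the slope or late against early times. Without the 1 h array it called 5 of 36, all positive, where 12.9% of all genes were called: Nedd8, Vhl, Ufd1, Sqstm1 and Ubqln2. Nedd8, the modifier that activates cullins, read -0.01, 0.47, 0.39 and 0.31. Vhl, the substrate receptor for hypoxia factors, read 0.42, 0.21, 0.34 and 0.32, and the autophagy receptor Sqstm1 0.31, 0.41, 0.20 and 0.22. At the other end stood Huwe1, a large ligase (-0.31, -0.23, -0.06 and -0.29), Cul4b (0.10, -0.07, -0.69 and -0.15) and Nfe2l1, a transcription factor of proteasome genes (-0.31, -0.12, -0.16 and -0.24).

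Marker lists of other cell types were summarised in the same way. The median of 6 astrocyte markers was -0.02 at 1 h and 0.22, 0.18 and 0.23 later, that of 7 microglial markers -0.03, 0.03, 0.12 and 0.31, and that of 5 oligodendrocyte markers -0.02, 0.09, 0.15 and 0.07. The 5 choroid plexus markers had -0.21, -0.20, -0.46 and -0.14, and the 5 vessel markers 0.13, -0.22, 0.00 and 0.17. Single markers spread widely within a list. The choroid plexus marker Kl read -1.42, -1.57 and -1.64 at 2, 4 and 6 h, where the highest of that list was at 0.09, 0.01 and 0.02. At 1 h the vessel markers ran from -1.05 (Cldn5) to 0.21 (Kdr). Of the 7 microglial markers, 3 were above and 2 below 0 on all 4 arrays. The 1 blood gene measured on all arrays, Hba-a1, was positive throughout, from 0.09 to 0.49. Their part in the ratios of the proteasome genes was not tested.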

How the data were processed

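Dentate gyrus RNA was compared on 4 two-colour arrays. The values deposited by the authors are log ratios, read as log2. The steps from scan to ratio are not given in the sources used here. Medians of the deposited non-zero ratios were 0.0052 to 0.017, and 24.9% to 37.4% of features per array held an exact 0, treated as no value. Arrays were centred on the median and features of a gene averaged. limma 3.58.1 (R 4.3.3, lmFit, eBayes, two-sided, Benjamini-Hochberg) was fitted on 6661 genes with a value on all 4 arrays. It was run on simulated data whose noise was independent between genes and arrays. Such data hold no dye bias and no array unlike the others, so they cannot bear on either. With no repeat arrays, a p-value here rests on scatter among times. Symbols came from the platform annotation. Alternatives covered exact 0, the number of arrays required, centring, scaling, features per gene, low features, array weights and each array left out. Every Psm gene could be named. Uba/Ube and Usp genes were named for the 5 highest and 5 lowest means, 3 largest and 3 smallest slopes, ratios past 0.5 on 2 or more arrays, or from a list of regulators. Members named outside this rule (Uba7, Uba1y, Ube2c, Ube2d2a, Ube3b, Usp10, Usp17la, Usp17lc, Usp24, Usp26, Usp27x, Usp46os2, and in the closing section Ube2q1, Ube2r2, Ube2w and Usp50) were added after their values were seen, as were Xist and the Y-linked genes. The 4 promoters printed, the 7 motifs and the limit of 0.3 for opposite signs were also chosen with values in view. Members and lists were chosen with earlier results of these data known.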

Additional observations from a re-analysis of the deposited data

Results flagged for a closer look

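Medians of a subgroup changed sign between times in Uba and Ube genes (-0.0326, 0.0138, 0.0909 and 0.0544, in the order 1, 2, 4 and 6 h) and in Usp genes (-0.0774, -0.0708, 0.0549 and 0.0208). With 1 array per time this difference between times was not tested. Single features with ratios at or past 0.3 of opposite sign at different times were those of Psma2 (0.51 at 1 h and -0.40 at 6 h), Psmb2 (-0.33 at 1 h and 0.42 at 6 h), Ube2v2 (1.01 at 1 h and -0.32 at 4 h) and Usp18 (-0.83 at 1 h and 0.40 at 2 h), also not tested. In all 4 the 1 h array held 1 of the opposing values. For Psma2, with values at 1 and 6 h alone, and Usp18, at 1 and 2 h alone, it could not be otherwise.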

How the results depend on the processing

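The count of member genes past the threshold for the mean was 0 under all alternatives but 2. Array weights gave 21 of 87 (26.9% of all genes), and leaving out single arrays gave 0 to 14. For the alternatives that gave 0, the share over all genes was not counted, so these counts are no result about the members. For late against early times leaving out single arrays gave 0 to 15, and for the slope 0 throughout. The Psm median over the gene means (0.10) was 0.0810 with exact 0 read as a value, 0.0798 with single features, 0.0662 with 1 feature per gene and 0.0643 to 0.1114 with single arrays left out. The Psm median at 1 h was 0.05 with quantile normalisation; at 2 h it was 0.0085 with exact 0 as a value, 0.0839 with single features and 0.0345 with 1 feature per gene; at 4 h it was 0.0787 without centring and at 6 h 0.12 with quantile normalisation. The Usp median at 2 h became 0.00 with exact 0 as a value. With single arrays left out, genes above 0 throughout numbered 10 to 17 (Psm), 3 to 11 (Uba/Ube) and 3 to 7 (Usp), and genes below 0 numbered 1 to 4, 2 to 5 and 3 to 6, where fewer arrays have to share a sign. Psm genes below 0 numbered 0 with exact 0 as a value, 0 without centring and 2 with single features. For the other moves the cause was not tested. Of 87 means of single member genes 29 changed sign under at least 1 alternative, each within 0.1063 of 0 in the reported fit. With array weights the mean log2 ratio became 0.0329 for Psma3, 0.0060 for Psmd3, 0.0925 for Psmd4, -0.0001 for Psmg1, 0.0024 for Ube2a, 0.0944 for Ube2g1, 0.0037 for Ube2h, -0.0294 for Ube2r2, -0.1012 for Ube2v2, 0.1426 for Usp2, 0.1079 for Usp20 and 0.0607 for Usp39. With exact 0 read as a value the mean log2 ratio became 0.0051 for Psma6, 0.0028 for Psmd4, -0.0255 for Uba3, 0.0085 for Usp2 and 0.0168 for Usp46os2. With no centring the mean log2 ratio became 0.0051 for Psma6, 0.0028 for Psmd4 and 0.0085 for Usp2. With single features fitted the mean log2 ratio became 0.2026 for Psmc2, 0.0940 for Ube2j2 and -0.0087 for Ube2v2. With arrays scaled to equal spread the mean log2 ratio became 0.0202 for Psmd4, 0.0264 for Usp2 and 0.0260 for Usp20. With quantile normalisation the mean log2 ratio became 0.0192 for Psmd4, -0.0006 for Ube2v2, -0.0002 for Ube2w, 0.0262 for Usp2 and 0.0186 for Usp20. With 1 feature per gene the mean log2 ratio became 0.0940 for Ube2j2 and -0.0087 for Ube2v2. Leaving out single arrays gave mean log2 ratios of -0.0106 to 0.0291 for Psma5, -0.0542 to 0.0287 for Psma6, -0.0110 to 0.0453 for Psma7, -0.0405 to 0.1479 for Psmd13, -0.1966 to 0.0423 for Psmd3, -0.0504 to 0.0988 for Psmd4, -0.0124 to 0.1154 for Psme2b, -0.0477 to 0.1064 for Psmg1, -0.1625 to 0.0692 for Psmg3, -0.0302 to 0.0028 for Ube2a, -0.1061 to 0.0960 for Ube2g1, -0.0721 to 0.0246 for Ube2h, -0.1181 to 0.0401 for Ube2j2, -0.0455 to 0.2211 for Ube2o, -0.0037 to 0.0807 for Ube2q1, -0.0474 to 0.0339 for Ube2r2, -0.1632 to 0.0350 for Ube2t, -0.0996 to 0.1122 for Ube2v2, -0.0077 to 0.0131 for Ube2w, -0.0055 to 0.1239 for Usp14, -0.0200 to 0.1532 for Usp16, -0.0748 to 0.0916 for Usp2, -0.0928 to 0.1439 for Usp20, -0.1209 to 0.0858 for Usp39 and -0.0729 to 0.0538 for Usp50. No slope or late difference at an unadjusted p under 0.05 changed sign. No paired analysis was possible because each time had 1 array. Without intensities, signal over background could not be examined.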
